A study of Mus musculus with 9 samples.

Results

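Mast cells that met IgE, antigen and the yew compound taxinine were compared with untreated mast cells. The comparison used 6 of the 9 libraries of the series, 3 called Taxinine and 3 called Control, and all 15109 genes of the count table. The columns were chosen by their names alone and not by any measured value. Both groups were wild-type C57BL/6 bone marrow cells, cultured for 4 weeks or more with 20% serum and 30% supernatant of WEHI-3 cells, which supplies interleukin 3. The Control cells were untreated. The Taxinine cells were sensitised with anti-DNP-IgE, given taxinine for 1 h and then exposed to DNP-BSA, the antigen that crosslinks this antibody. The labels state neither a dose, nor a vehicle, nor how long the antigen was present. Because the antibody, the antigen, the taxinine and any solvent all separate the 2 groups, their effects cannot be told apart in these values. Each group has 3 samples described as biological replicates, with no animal or culture named for them, and the p-values speak only of the spread within these 2 sets of 3, part of which may be technical.

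Mast cells are tissue-resident cells of the immune system, best known for their part in allergy. They carry the high-affinity IgE receptor, and an antigen that clusters it starts kinases of the SRC and SYK families, calcium entry and the MAP kinase cascade. Stored granules are then released, lipid mediators are made, and transcription factors of the EGR, AP-1, NFAT and NF-kB families switch on cytokine and chemokine genes. Taxinine is a taxane diterpenoid of yew. The title of the series names the interleukin 17 and tumour necrosis factor programmes of mast cells as its question, so the direction of those lists is not independent evidence.

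Total counts were 13712274 to 14116976 in Control and 8975371 to 13829804 in Taxinine. A count of 3 in 1 library stands for 0.199 to 0.357 CPM, the count scaled to a common library total. The first principal component held 77.5% of the variance and separated the groups, with scores of -28.5 to -26.6 in Control and 27.0 to 28.4 in Taxinine. The second, 7.46%, spread the Taxinine libraries, with Taxinine 1, the shallowest, at 16.3 and the other two at -11.2 and -5.43. Control 1 and Control 2 differed more than any other replicate pair, at a chi-square of 4.11 per gene against 1.57 to 2.49 for the other 5 pairs. The labelled cell type was checked on marker lists. All 13 mast cell markers were measured, with a summed level of 56565 to 58368 CPM in Control and 60700 to 62087 CPM in Taxinine. The 4 basophil markers summed to 1362 to 1380 CPM in Control and 1233 to 1253 CPM in Taxinine, and the 8 macrophage markers measured to 59.95 to 65.8 and 65.9 to 69.9 CPM. The 4 megakaryocyte markers summed to 1646 to 1787 CPM over the 6 libraries, nearly all of it Itga2b (CD41), with the other 3 under 1 CPM in both group means. Erythroid markers summed to 32.6 to 36.5 CPM, the 1 dendritic marker measured to 29.97 to 35.2 CPM, and eosinophil markers to 12.9 to 14.6 CPM in Control and 19.5 to 21.5 CPM in Taxinine. Those of neutrophils, T cells and B cells summed to at most 2.35 CPM in any library, and none of 5 stromal markers was among the genes used.

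The response was broad. At an adjusted p under 0.05 in edgeR's quasi-likelihood test, 5249 genes were called, 34.7% of those tested, with 2519 higher in Taxinine (16.7%) and 2730 lower (18.1%). Rises were larger than falls: 880 genes were called at 2-fold or more (5.82%), of which 533 were higher (3.53% of all genes) and 347 lower (2.3%). At 8-fold or more the counts were 83 and 14. The groups did not overlap for 6607 genes (43.7%). Genes at least 2-fold higher took 3.48% to 3.59% of the scaled reads in Control and 10.9% to 11.0% in Taxinine, while genes at least 2-fold lower went from 0.415% to 0.427% down to 0.154% to 0.157%. Fosb gave the largest single gain in reads, followed by Plek, Furin, Egr1, Ero1l, Egr3, Ddx5, Nr4a1, Sqstm1 and Egr2, and these 10 genes, ranked after their values were seen, made up 31.3% of the gain over the 533 genes called at least 2-fold higher. Plek encodes pleckstrin, a target of protein kinase C, and its level went from 870 ± 21.9 to 4468 ± 77.9 CPM (SD, n = 3).

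The split between higher and lower calls depended on scaling. With trimmed mean of M values (TMM) scaling, 48.0% of called genes were higher and the median log2 fold change of all genes was -0.01. With plain library totals the median was -0.21 and 14.9% of calls were higher, and limma on the deposited log2 values gave -0.16 and 15.1%. List medians are therefore given relative to the median of all genes. Of 50 gene lists counted, 36 had more members called higher than lower. Of these 36, 25 had more called lower with plain library totals, so that second split is given beside those described. Every list count below stands beside 16.7% of all genes called higher and 18.1% called lower. None of the 880 genes called at 2-fold was called in the other direction under the alternatives run. Of these 880, 630 kept their call with a filter at 1 CPM in 3 libraries, 675 with DESeq2 and 742 to 873 under the others.

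**Figure D1:**
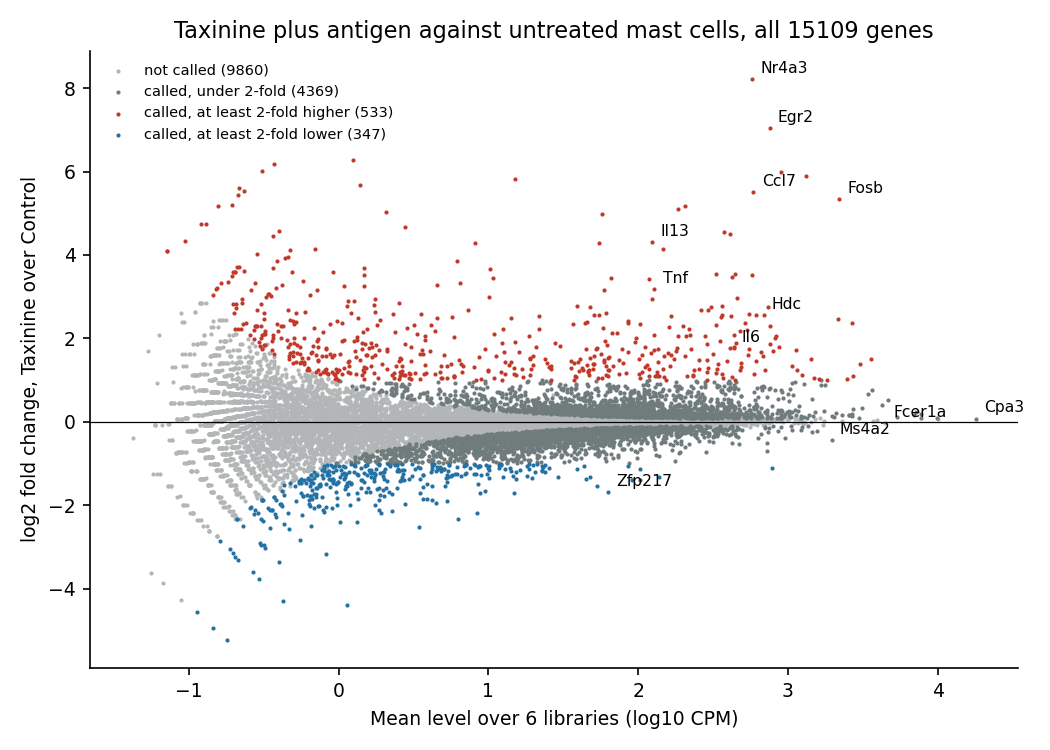
Log2 fold change of Taxinine over Control (vertical) against the mean level over the 6 libraries in log10 CPM (horizontal) for all 15109 genes, coloured by call. The 533 genes called at least 2-fold higher reach a log2 fold change of 8.22 for Nr4a3, while the IgE receptor gene Fcer1a lies near 0.

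Transcription factors of the immediate early class, genes that cells switch on within minutes without new protein synthesis, showed the largest rises. Of 35 measured, 31 were called higher and 2 lower, and 26 were at least 2-fold higher. Their median log2 fold change was 2.39 above that of all genes, and 2.03 to 2.43 over the alternatives. Nr4a3, an orphan nuclear receptor, was at 4.01, 3.37 and 4.17 CPM in Control replicates 1 to 3 and at 1116, 1187 and 1157 CPM in Taxinine. Egr2, a zinc finger factor of the early growth response family, was at 12.8, 10.7 and 10.7 CPM in Control and at 1483, 1496 and 1510 CPM in Taxinine. The groups stood far apart for both genes. Their log2 fold changes of 8.22 ± 0.06 (SE) and 7.04 ± 0.05 shared the smallest adjusted p, 3.67e-61 (edgeR).

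The other NR4A receptors moved the same way. Nr4a1 went from 27.4 ± 1.27 to 1757 ± 92.4 CPM (log2 fold change 6.00) and Nr4a2 from 10.5 ± 1.21 to 359 ± 10.7 CPM (5.10). Of the EGR family, Egr3 was at 52.4, 36.8 and 43.3 CPM in Control and at 2633, 2673 and 2513 CPM in Taxinine (5.88 ± 0.12, adjusted p = 2.91e-07, edgeR). Egr1 already stood at 535 to 774 CPM in Control and at 3618 to 3697 CPM in Taxinine (2.47 ± 0.15). The Control libraries varied more for these EGR genes than for Nr4a3, with Control 1 highest and Control 2 lowest in both. Egr4 had no count in Control and 20 in Taxinine, at least 9.46-fold higher against a floor of 3 counts over the Control group.

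AP-1 factors are dimers of FOS and JUN proteins, and every FOS and JUN gene on the list was called higher. Fosb was at 107, 108 and 99.8 CPM in Control and at 4256, 4310 and 4272 CPM in Taxinine, with no overlap (5.35 ± 0.04, adjusted p = 3.97e-61, edgeR). The log2 fold changes of Fos, Jun and Junb were 2.94, 2.59 and 2.38, those of Fosl2, Fosl1 and Jund 2.52, 2.49 and 1.59. Atf3, a stress-induced partner of JUN, went from 15.8 ± 0.860 to 278 ± 2.82 CPM (4.13). The 2 members called lower were Myc, the growth regulator, from 147, 115 and 136 CPM in Control to 51.2, 50.2 and 50.1 CPM in Taxinine (-1.39), and Klf10 (-0.31). Cebpd was not called (0.19).

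The promoters of members that rose were searched for short sites of these factors. RefSeq promoters on GRCm38.p6, the 250 bases before each gene's start, were matched by Entrez identifier, or by symbol where that was missing. A promoter was found for 10667 of the genes, among them 330 of the 533 that were called at least 2-fold higher. Both strands were searched, and no overlap between different motifs was removed. TGANTCA, the AP-1 site, stood in 9.39% of these 330 promoters, in 4.39% of all and in 4.21% of the 214 matched from genes at least 2-fold lower. An NF-kB site was found in 7.58%, 4.27% and 3.74%. GCGNGGGCG, the EGR site, gave 10.9%, 8.63% and 6.54%, and TGACGTCA, the cyclic AMP response element, 4.24%, 2.73% and 0.0%. A serum response element was in 0.909%, 1.1% and 1.4%. The core TGACNNNGC of the antioxidant response element was in 14.2%, 12.2% and 14.5%, and a heat shock element in 0.303%, 0.309% and 0.0%. In 54 promoters of genes called at least 8-fold higher, the AP-1, NF-kB, EGR and cyclic AMP sites stood in 7.41%, 5.56%, 14.8% and 3.7%. That is 4, 3, 8 and 2 promoters. The antioxidant core stood in 7.41% of the 54, and the serum and heat shock elements in 0.0%. A match is a description of the letters and not a site shown to be used.

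Below are the upstream 250 bases of 4 genes that rose, picked after values and matches were seen to show one gene each of the AP-1, RNA decay, cytokine and redox groups. Capitals mark the matches: in Fosb on chr7:19310046-19310295 (minus strand) an NF-kB site and an EGR site, in Btg2 on chr1:134079156-134079405 (minus strand) a cyclic AMP response element and an EGR site, in Il6 on chr5:30012864-30013113 (plus strand) an AP-1 site and an NF-kB site, and in Srxn1 on chr2:152105274-152105523 (plus strand) 2 AP-1 sites.
Fosb: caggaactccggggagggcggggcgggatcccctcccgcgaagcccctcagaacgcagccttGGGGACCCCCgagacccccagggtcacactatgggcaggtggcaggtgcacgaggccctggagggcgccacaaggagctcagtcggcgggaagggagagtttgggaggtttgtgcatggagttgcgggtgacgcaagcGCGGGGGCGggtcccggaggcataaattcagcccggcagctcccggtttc
Btg2: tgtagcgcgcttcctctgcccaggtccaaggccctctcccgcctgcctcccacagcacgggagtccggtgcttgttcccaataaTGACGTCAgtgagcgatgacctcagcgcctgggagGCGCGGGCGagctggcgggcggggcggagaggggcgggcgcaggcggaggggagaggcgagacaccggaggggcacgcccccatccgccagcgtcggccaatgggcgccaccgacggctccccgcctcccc
Il6: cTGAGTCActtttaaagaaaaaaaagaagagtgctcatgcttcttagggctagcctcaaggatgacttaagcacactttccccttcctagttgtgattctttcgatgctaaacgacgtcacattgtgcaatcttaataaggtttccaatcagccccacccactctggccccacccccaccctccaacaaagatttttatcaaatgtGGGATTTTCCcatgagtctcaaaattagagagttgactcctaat
Srxn1: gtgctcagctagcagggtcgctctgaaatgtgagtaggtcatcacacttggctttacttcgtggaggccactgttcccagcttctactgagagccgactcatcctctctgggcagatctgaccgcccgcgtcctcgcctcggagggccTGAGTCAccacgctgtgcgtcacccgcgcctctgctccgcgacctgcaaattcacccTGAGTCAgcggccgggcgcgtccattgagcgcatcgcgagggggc

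Of 33 cytokine genes listed, 21 were in the count table. All 21 were called higher, 15 of them at least 2-fold, and 18 to 21 were over the alternatives. How genes were chosen for the table is not given here. Members with hardly a read in Control, such as Il33, could rise but hardly fall, so the lack of falls among these is no evidence. The median was 1.77 above that of all genes, 1.04 to 1.81 over the alternatives. Tnf, the tumour necrosis factor gene, was at 26.0, 24.0 and 27.0 CPM in Control and at 214, 236 and 243 CPM in Taxinine, with no overlap (3.17 ± 0.06, adjusted p = 3.98e-44, edgeR). Il6 was at 208, 179 and 206 CPM in Control and at 664, 656 and 685 CPM in Taxinine, again apart (1.76 ± 0.04). The untreated cells thus already held Il6 transcripts at a level of 197 ± 16.3 CPM (SD, n = 3). Il13, a cytokine of mucus and airway reactivity, was at 14.3, 10.1 and 11.4 CPM in Control and at 215, 244 and 245 CPM in Taxinine (4.30 ± 0.08).

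Growth factors for other cells were part of the same list. Csf1, the macrophage growth factor, went from 70.1 ± 8.21 to 818 ± 50.6 CPM (3.55), and Lif, of the interleukin 6 family, from 189 ± 20.3 to 874 ± 34.2 CPM (2.21). Vegfa, which drives vessel growth, went from 124 ± 5.63 to 452 ± 6.38 CPM (1.87). Tnfsf14, the TNF family ligand LIGHT, gained 1.72 on the log2 scale. Small rises were those of Tgfb1 (0.34, but 0.01 and not called after quantile scaling), Il1b (0.46) and Il4 (0.52). Several members rested on few reads. Csf2, the gene of granulocyte-macrophage colony-stimulating factor, had 2 counts in Control and 88 in Taxinine, a ratio of 62.4 (exact 95% interval 16.8 to 524, counting error only), Il10 had 3 and 22 counts (10.4, interval 3.13 to 54.3), and Il33 had 0 and 8.

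**Figure D2:**
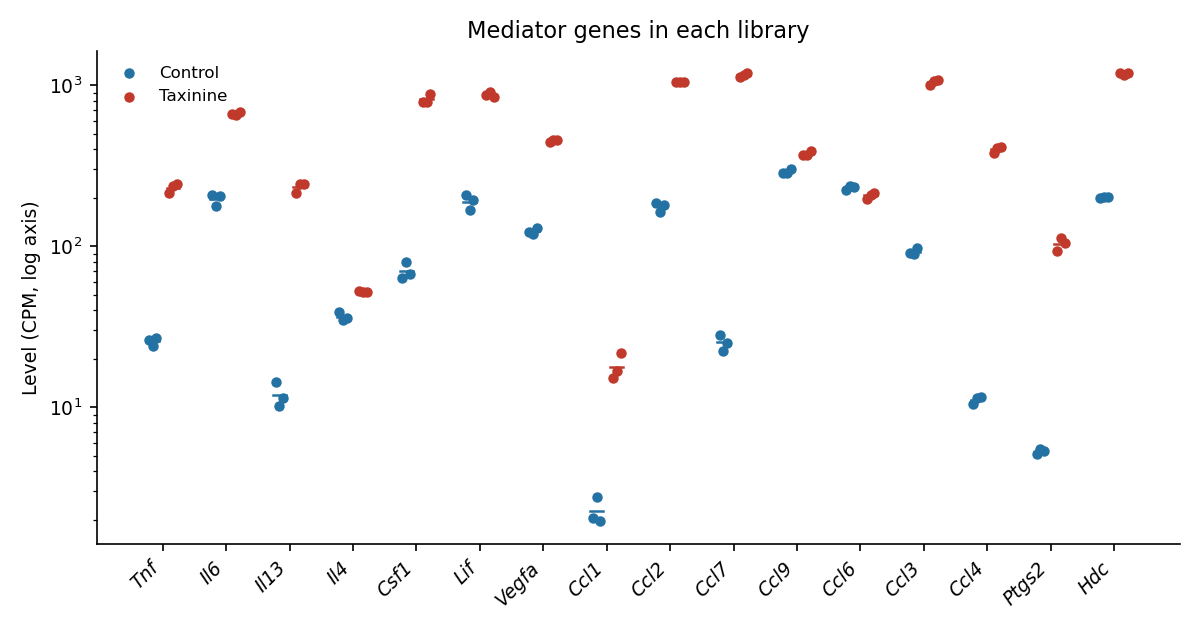
Levels of 16 mediator genes in each library, in CPM on a log axis; each point is 1 library, blue for Control and red for Taxinine, with the group mean as a line. Only Ccl6 has its Taxinine libraries, at 197 to 215 CPM, below its Control libraries, at 224 to 237 CPM.

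Type 2 cytokine genes lie together on chromosome 11, and their neighbours did not move as a block. On GRCm38 the order is Kif3a, Il4 (chr11:53602982-53618669), Il13 (chr11:53631324-53634702), Rad50, Irf1 and Csf2 (chr11:54247271-54249667). Il4 went from 36.3 ± 2.20 to 52.1 ± 0.461 CPM, beside the larger change of Il13. Kif3a, at 9.35 ± 0.530 and 11.0 ± 1.06 CPM, and Rad50, at 93.9 ± 4.36 and 94.6 ± 4.14 CPM, were not called. Irf1, an interferon-regulated factor, was lower, from 36.1 ± 3.92 to 24.1 ± 0.242 CPM (-0.58).

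Chemokine genes split by member. Of 15 on the list, 8 were called higher, 7 of them at least 2-fold, and 1 lower, and the median relative to all genes ranged from 0.39 to 2.41 over the alternatives (2.23 as tested), with several members at few reads. Ccl2, which attracts monocytes, was at 187, 163 and 180 CPM in Control and at 1049, 1048 and 1050 CPM in Taxinine (2.57 ± 0.04, adjusted p = 2.15e-46, edgeR). Its neighbour Ccl7, at chr11:82045712-82047525, was at 28.2, 22.4 and 25.1 CPM in Control and at 1119, 1152 and 1183 CPM in Taxinine (5.51 ± 0.05). Both were higher in every Taxinine library than in any Control library. A second cluster holds Ccl5, Ccl9, Ccl6, Ccl3 and Ccl4 within chr11:83525778-83664683. Ccl3 went from 92.3 ± 4.197 to 1051 ± 37.6 CPM (3.51) and Ccl4 from 11.1 ± 0.584 to 401 ± 18.995 CPM (5.17). Between them and Ccl5, Ccl9 went from 291 ± 10.5 to 376 ± 10.8 CPM (0.37), Ccl6 from 231 ± 6.60 to 207 ± 9.10 CPM (-0.16, adjusted p = 0.00143), and Ccl5, at 1.39 ± 0.389 and 1.54 ± 0.658 CPM, was not called. Of 6 genes with a chemokine symbol outside the list, Ccl25, from 6.90 to 3.16 CPM (-1.13), and Cx3cl1 (-0.47) were called lower and none higher. The call of Cx3cl1 was lost without Control 1 (-0.36) or Taxinine 2 (-0.30).

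The interleukin 17 pathway list had 34 of 58 measured members called higher and 5 lower. The split was 25 and 16 with plain library totals and 27 and 7 after quantile scaling. The list's median lay 0.25 above that of all genes, and 0.15 to 0.29 above over the alternatives. Of the 34 called higher, 17 were at least 2-fold higher. The 17 were the AP-1 genes Fosb, Fos, Jun, Fosl1 and Jund, the chemokines Ccl7, Ccl2, Cxcl2 and Cxcl10, the cytokines Csf2, Il13, Tnf and Il6, and Ptgs2, Cebpb, Tnfaip3 and the receptor Il17rb. Il17ra, the common receptor subunit, was at 156, 176 and 156 CPM in Control and at 177, 181 and 170 CPM in Taxinine, so the groups overlapped (0.11 ± 0.04, adjusted p = 0.0437, edgeR). This call was lost without Control 1, Control 3, Taxinine 1 or Taxinine 2 (0.09 to 0.11), and the value was -0.09 with plain library totals. Traf3ip2, which encodes the adaptor ACT1, was at 4.83 ± 0.858 and 3.60 ± 0.563 CPM (-0.45, adjusted p = 0.0595) and was not called, but it was without Control 1 (-0.57) and with plain library totals (-0.65). Il17rb had 1 count in Control and 12 in Taxinine, an exact 95% interval of 2.52 to 728 for the ratio, and was called, but not without Taxinine 1.

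The tumour necrosis factor list gave 39 higher and 17 lower of 94 measured (27 and 34 with plain library totals), with 16 at least 2-fold higher and a median 0.12 above that of all genes. Jun, Ccl2, Junb and Tnf had its smallest p-values. Of the receptors, Tnfrsf1b was at 117 ± 3.67 and 123 ± 4.09 CPM and was not called, with -0.12 under plain library totals.

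NF-kB genes were called in 25 of 29 cases, 17 higher and 8 lower (14 and 12 with plain library totals). Nfkbid, a nuclear inhibitor of kappa B that acts with the p50 subunit, was at 33.6, 36.7 and 33.5 CPM in Control and at 764, 798 and 781 CPM in Taxinine (4.50 ± 0.05, adjusted p = 4.33e-55, edgeR). Map3k8, the kinase TPL2, and Nfkbiz, a nuclear cofactor, gained 2.61 and 2.55 on the log2 scale and Tnfaip2 gained 2.29. The feedback inhibitor Tnfaip3 (A20) went from 168 ± 9.44 to 414 ± 7.64 CPM (1.30) and Nfkbia, the main cytoplasmic inhibitor, from 66.9 ± 4.78 to 111 ± 2.75 CPM (0.74). Nfkbie (-0.39) and Bcl3 (-0.59), also of the inhibitor family, were lower.

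Feedback regulators of MAP kinase signalling were higher in 20 of 28 cases and lower in 3, with 15 at least 2-fold higher and a median 1.12 above that of all genes. Trib1, a pseudokinase that binds MEK1, was at 0.41, 0.53 and 0.61 CPM in Control and at 31.4, 28.7 and 28.5 CPM in Taxinine (5.81 ± 0.17). Rgs2 and Rgs1, which shorten G-protein signals, went from 173 ± 9.56 to 786 ± 18.8 CPM (2.18) and from 329 ± 3.82 to 1195 ± 53.9 CPM (1.86). Spry2, an inhibitor of receptor tyrosine kinase signalling, went from 9.85 ± 0.347 to 67.9 ± 0.616 CPM (2.78). Of 19 genes with a DUSP symbol, phosphatases of the dual-specificity class, 11 were called higher, among them Dusp1 (1.82), Dusp5 (1.76) and Dusp6 (1.34), and 4 lower, among them Dusp7 (-1.03).

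Factors that shorten messenger RNA tails or bind AU-rich elements followed. Of 28 measured, 14 were called higher and 3 lower (11 and 11 with plain library totals, 12 and 7 after quantile scaling). Btg2, which recruits the CCR4-NOT deadenylase and whose promoter is shown above, was at 20.4, 20.3 and 20.6 CPM in Control and at 209, 224 and 220 CPM in Taxinine (3.41 ± 0.05, adjusted p = 4.70e-46, edgeR). Its relatives Tob2 and Btg1 gained 2.09 and 1.24, and the AU-rich element binder Zfp36l1 gained 2.01. Of the CCR4-NOT subunits, Cnot8 was lower (-0.26).

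Calcineurin and NFAT genes were higher in 12 of 31 cases and lower in 3 (6 and 13 with plain library totals). That is 48.4% called, beside 34.7% of all genes. Rcan1, a calcineurin inhibitor and itself an NFAT target, was at 11.2, 12.2 and 11.8 CPM in Control and at 109, 105 and 103 CPM in Taxinine (3.17 ± 0.07) and was the sole member called at 2-fold or more. Nfatc1 went from 164 ± 1.94 to 249 ± 5.79 CPM (0.60). Cyclic AMP and PIM kinase genes gave 8 higher and 8 lower of 27 (6 and 17 with plain library totals). The adenosine receptor genes Adora3, Adora2b and Adora2a gained 1.19, 1.32 and 1.36 on the log2 scale, and Crem, an early repressor of cyclic AMP responses, gained 1.57. Pim2, a survival kinase, was lower (-0.81).

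The receptor that binds IgE changed little at the transcript level. Fcer1a, the chain that binds the antibody, was at 4420, 4543 and 4605 CPM in Control and at 4294, 4385 and 4529 CPM in Taxinine (-0.04 ± 0.03, adjusted p = 0.379, edgeR). Fcer1g, the signalling chain, was at 284 to 304 CPM and 274 to 300 CPM (-0.04). The groups overlapped for both chains at this scaling, but with plain library totals both were called lower, at -0.24 each. Ms4a2, the beta chain that amplifies the signal, was lower, from 2263, 2161 and 2311 CPM to 1702, 1625 and 1666 CPM (-0.43 ± 0.03, adjusted p = 3.46e-16), with no overlap. In bulk samples fewer cells that carry a transcript and less transcript per cell cannot be told apart.

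In the list of the receptor, its 3 chains included, and its proximal signalling genes, 9 of 39 were called higher and 11 lower (2 and 24 with plain library totals). The kinase Syk was not called (-0.03), though it was with plain library totals (-0.23). Lcp2, which encodes the adaptor SLP-76, gained 0.55, and Pik3cd was lower (-0.25). Among 23 inhibitory receptors and phosphatases 7 were higher and 8 lower. Cd33, a sialic acid-binding inhibitory receptor, went from 146 ± 6.87 to 556 ± 18.7 CPM (1.93), and Siglecf, of the same family and also an eosinophil marker, from 4.40 ± 1.03 to 12.8 ± 1.02 CPM (1.55). Ptpn22 was higher (0.89) and Cd300lf lower (-0.46).

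The receptors on which cultured mast cells depend were not called. Kit, the receptor of stem cell factor, was at 3861 ± 114 and 3954 ± 69.6 CPM (0.03, adjusted p = 0.454, edgeR), and Il3ra at 47.2 ± 1.32 and 46.4 ± 2.79 CPM (-0.03, adjusted p = 0.781). A p above the threshold does not show that these levels were equal, and with plain library totals both were called lower, Kit at -0.17 and Il3ra at -0.23. In the list of cytokine receptor signalling 11 of 37 members were higher and 6 lower (6 and 22 with plain library totals). The feedback inhibitors Cish and Socs2 gained 0.82 and 0.63, Socs3 gained 1.09, and Socs1 went the other way, from 54.0 ± 7.43 to 24.7 ± 2.56 CPM (-1.13). Il4ra was lower, from 1087 ± 19.9 to 833 ± 11.2 CPM (-0.38).

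Transcription factors that set mast cell identity were lower more often than higher. Of 24 measured, 12 were called lower and 3 higher, against 18.1% and 16.7% of all genes, and the median lay 0.14 below that of all genes (0.13 to 0.25 below over the alternatives). Lyl1, a basic helix-loop-helix factor of blood progenitors, was at 63.8, 65.8 and 65.2 CPM in Control and at 21.9, 26.9 and 26.4 CPM in Taxinine (-1.36 ± 0.07, adjusted p = 1.74e-23, edgeR). Gata1 went from 128 ± 2.06 to 81.1 ± 3.29 CPM (-0.66), Gata2 from 1675 ± 34.2 to 1429 ± 7.42 CPM (-0.23), Spi1 from 75.6 ± 4.95 to 59.9 ± 1.45 CPM (-0.33) and Mitf from 90.7 ± 4.07 to 74.2 ± 2.42 CPM (-0.29). None of these 5 overlapped between the groups, but Gata2, Spi1 and Mitf were chosen after their values were seen. Over the whole list 17 of 24 did not overlap, beside 43.7% of all genes. Runx1 and Hhex were higher, at 0.34 and 0.37, though Runx1 was not called after quantile scaling (0.05).

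Granule protease genes were called higher in 8 of 19 cases and lower in 1 (3 and 9 with plain library totals). Cpa3, mast cell carboxypeptidase, was at 17448 ± 295 and 18429 ± 405 CPM (0.08 ± 0.03, adjusted p = 0.0368, edgeR) and Tpsb2, a tryptase, at 9512 ± 400 and 10216 ± 411 CPM (0.10, adjusted p = 0.0112). With plain library totals they stood at -0.12 and -0.10. The call of Cpa3 was lost without Control 1, Control 3, Taxinine 1 or Taxinine 3 (0.07 to 0.09) and that of Tpsb2 without Control 1, Taxinine 2 or Taxinine 3 (0.08 to 0.09). Mcpt4, a chymase, was not called (0.06). Tpsab1, the other tryptase, was higher, from 40.8 ± 2.73 to 131 ± 4.62 CPM (1.68), but its near-identical copy Tpsb2 makes the split of reads between the 2 genes uncertain. Ctsc, cathepsin C, which activates granule proteases, went from 340, 314 and 324 CPM to 1364, 1321 and 1358 CPM (2.05 ± 0.04).

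Genes of histamine and its storage moved singly. Hdc, the enzyme that makes histamine, was at 199, 203 and 201 CPM in Control and at 1184, 1155 and 1188 CPM in Taxinine, with no overlap (2.55 ± 0.04, adjusted p = 1.74e-48, edgeR). Srgn, the core protein of granule proteoglycans, went from 2632 ± 59.7 to 4170 ± 65.1 CPM (0.66), and Slc18a2, the vesicular amine carrier, gained 0.26, but after quantile scaling these stood at -0.01 and -0.21. The enzymes Ndst2 and B4galt7, which build and sulfate heparin chains, were lower (-0.50 and -0.78). Over the 24 measured members of this list 6 were higher and 8 lower.

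Lipid mediator genes gave 6 higher and 4 lower of 25 (4 and 15 with plain library totals). That is 40.0% called, near the 34.7% of all genes. Ptgs2, the inducible cyclooxygenase, was at 5.10, 5.49 and 5.32 CPM in Control and at 93.0, 113 and 105 CPM in Taxinine (4.29 ± 0.08, adjusted p = 1.65e-41, edgeR). Hpgds, which makes prostaglandin D2 from the product of that enzyme, went from 191 ± 12.02 to 253 ± 7.39 CPM (0.41). The leukotriene enzyme Alox5 was at 2268 ± 34.4 and 2294 ± 24.5 CPM (0.02) and was not called, but stood at -0.18 with plain library totals. Genes of granule exocytosis were called in both directions, 9 higher and 10 lower of 40 (5 and 28), 47.5% called beside 34.7%. Napa, the alpha-SNAP gene, stood at 0.62, Lamp2 and Rab7 at 0.47 each and Rab5a at 0.42.

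**Figure D3:**
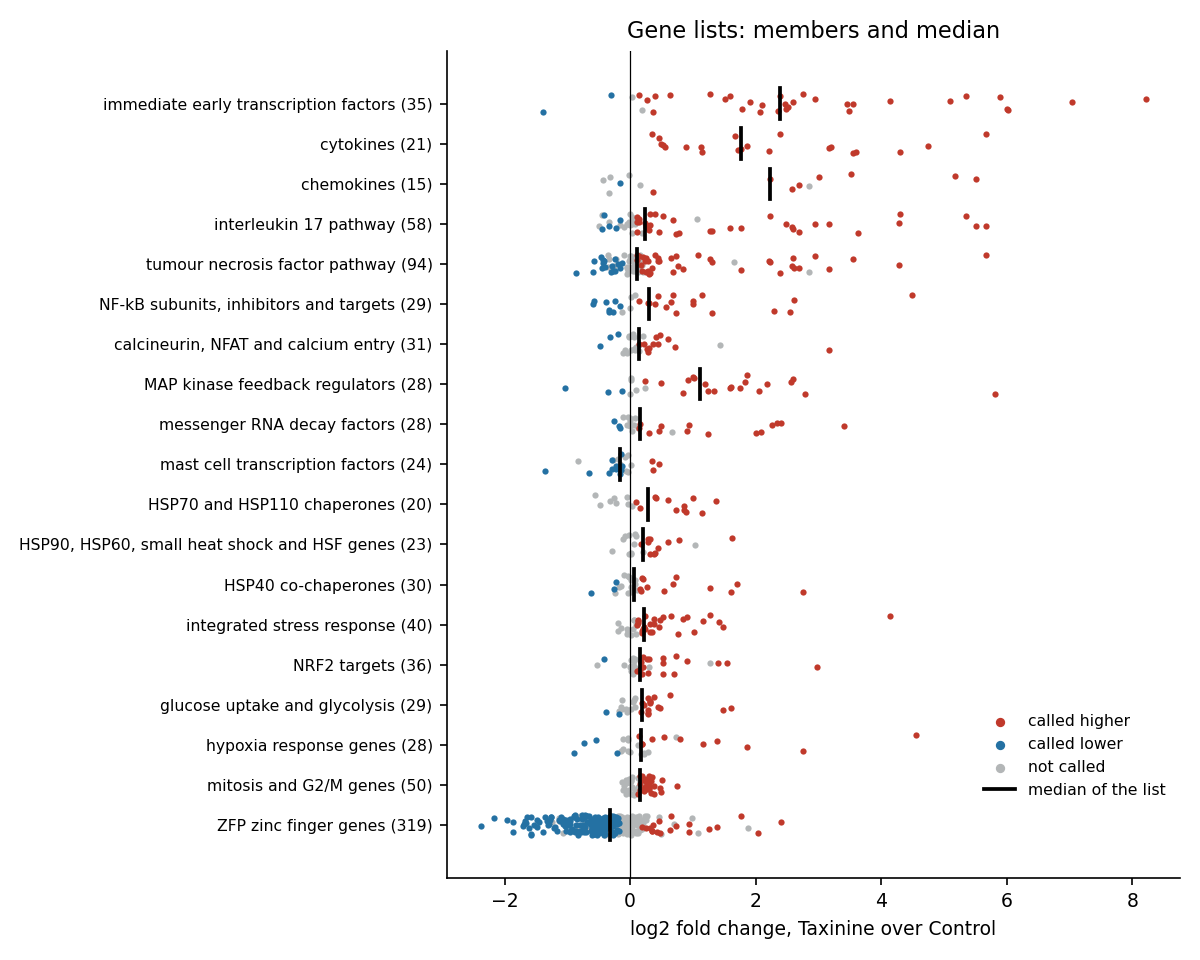
Log2 fold change of Taxinine over Control for each measured member of 19 gene lists, with the number of members in brackets. Points are genes, red where called higher, blue where called lower and grey where not called, and the black line is the list's median, which is highest for immediate early factors (2.38) and lowest for ZFP genes (-0.32).

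Chaperone genes were called higher more often than lower. Among HSP70 and HSP110 genes 12 of 20 were called higher and none lower (median 0.29 above all genes), among HSP90, HSP60 and small heat shock genes 11 of 23 and none (0.21), and among HSP40 genes 12 of 30 and 3 lower (0.08). With plain library totals or the deposited log2 values, up to 6 members of the first list and 7 of the second were called lower, and HSP40 genes gave 7 higher and 14 lower, so the absence of falls holds only relative to most genes. Dnajb1, the HSP40 partner of inducible HSP70, was at 198, 184 and 187 CPM in Control and at 1257, 1330 and 1229 CPM in Taxinine (2.75 ± 0.04, adjusted p = 1.86e-48, edgeR). It stood well above the HSP70 genes in its change. Hspa8 went from 1219 ± 33.3 to 2446 ± 69.8 CPM (1.00), Hspa4l and Hspa5, the chaperone of the endoplasmic reticulum, gained 0.86 and 0.89, and the co-chaperone Bag3 gained 1.14.

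The heat-inducible pair Hspa1a and Hspa1b rose by less than Dnajb1, and their near-identical sequences leave the split of reads between them uncertain. Hspa1a was at 73.3, 78.2 and 71.8 CPM in Control and at 121, 136 and 114 CPM in Taxinine (0.73), and Hspa1b went from 246 ± 6.11 to 443 ± 31.6 CPM (0.85). Hsp90aa1, the inducible HSP90, gained 0.78 and Hsp90ab1 gained 0.31, or -0.20 for the latter after quantile scaling. Hsf1, the factor that drives heat shock genes, was not called (-0.01). Other HSP40 genes with large rises were Dnajb9, of the endoplasmic reticulum (1.70), Dnajb4 (1.60) and Dnaja1 (1.27). The ring-shaped CCT chaperonin and prefoldin, which fold tubulin and actin, had 8 of 15 genes called higher, led by Cct2 (0.18, or -0.02 with plain library totals), but this count was 0 with plain library totals, with the deposited log2 values and after quantile scaling.

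In the proteasome and ubiquitin list 17 of 45 were called higher and 3 lower (3 and 22 with plain library totals, 7 and 7 after quantile scaling). Ubb, a polyubiquitin gene, was at 575, 635 and 592 CPM in Control and at 1515, 1534 and 1544 CPM in Taxinine (1.35 ± 0.04), with no overlap. No proteasome subunit gene reached 2-fold, with Psmc6 at 0.35 and Psmd11 at 0.30.

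Genes of the integrated stress response, which couples amino acid shortage and protein misfolding to translation through ATF4, were called higher in 28 of 40 cases and lower in none. The median was 0.24 above that of all genes (0.12 to 0.26 over the alternatives), and up to 7 members were called lower with other scalings. Atf4 itself was at 668, 670 and 671 CPM in Control and at 1102, 1143 and 1146 CPM in Taxinine (0.76 ± 0.03, adjusted p = 5.36e-26, edgeR). Ppp1r15a, which directs dephosphorylation of the initiation factor eIF2, gained 1.48, the autophagy receptor Sqstm1 gained 1.02, the amino acid carriers Slc7a5 and Slc38a2 gained 0.91 and 0.84, and Ddit3 (CHOP) gained 0.65. Within the unfolded protein response list 15 of 33 were higher and 4 lower (8 and 17 with plain library totals, 7 and 13 after quantile scaling): the oxidase Ero1l gained 1.38, and Syvn1, a ubiquitin ligase of the endoplasmic reticulum, gained 1.11.

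NRF2 drives genes against oxidants and electrophiles. Of 36 measured targets, 18 were called higher and 1 lower (9 and 10 with plain library totals), 3 of them at least 2-fold higher, and the median was 0.18 above that of all genes. Srxn1, sulfiredoxin, was at 100, 102 and 107 CPM in Control and at 786, 798 and 847 CPM in Taxinine (2.97 ± 0.04, adjusted p = 3.20e-49, edgeR). Its promoter, shown above, holds 2 AP-1 sites. Hmox1, heme oxygenase 1, went from 264 ± 5.52 to 700 ± 33.1 CPM (1.41), Gstm1 from 32.4 ± 2.42 to 94.4 ± 6.09 CPM (1.55), Txnrd1 from 450 ± 7.76 to 733 ± 10.4 CPM (0.70) and Gclc, the rate-limiting enzyme of glutathione synthesis, from 136 ± 4.40 to 226 ± 7.80 CPM (0.74). Keap1, the inhibitor of NRF2, was the member called lower (-0.42).

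**Figure D4:**
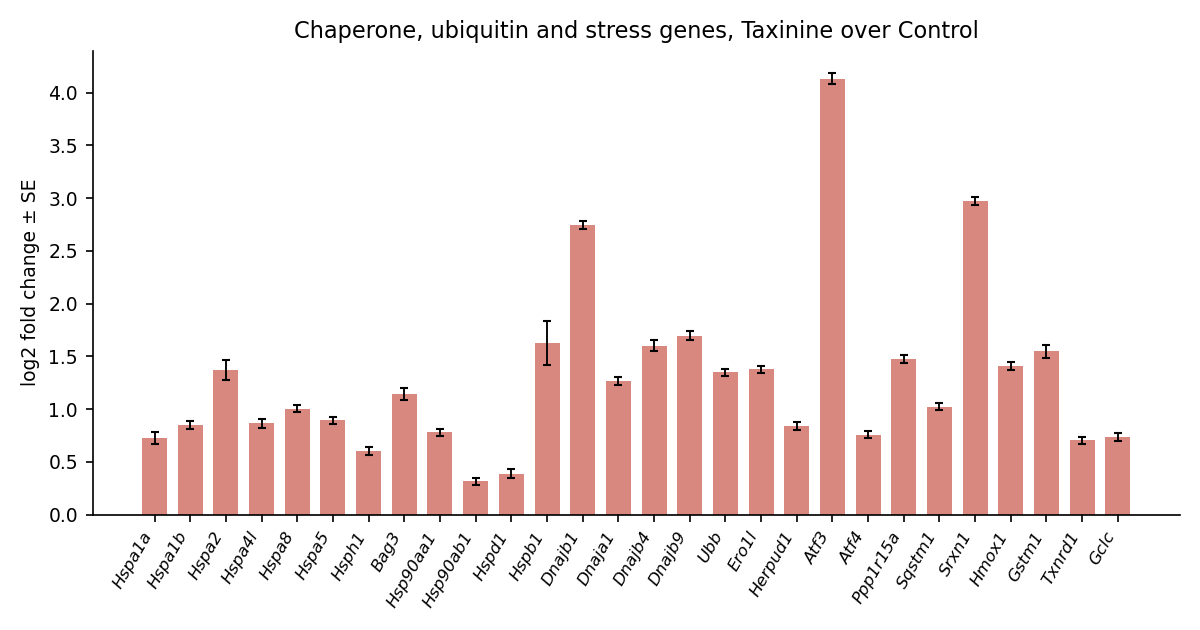
Log2 fold change of Taxinine over Control with its approximate SE, taken from the test's F statistic, for 28 chaperone, ubiquitin and stress genes. All bars are above 0, from 0.31 for Hsp90ab1 to 4.13 for Atf3, with Srxn1 at 2.97 and Dnajb1 at 2.75. The genes were picked by hand, so the lack of bars below 0 is no result about these classes. Members not plotted include Hsf1 (-0.01, not called) and Keap1 (-0.42, called lower).

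Tubulin genes, which encode the subunits of microtubules, were called in both directions, 11 higher and 6 lower of 33 with microtubule partners included. The split was 7 and 11 with plain library totals. Of these 33, 51.5% were called, beside 34.7% of all genes. Tuba1c was at 86.5, 87.3 and 88.0 CPM in Control and at 183, 188 and 191 CPM in Taxinine (1.10 ± 0.04, adjusted p = 6.61e-28, edgeR). Tubb4b went from 201 ± 6.35 to 358 ± 13.0 CPM (0.83) and Tubb2a, whose call was lost with plain library totals (0.08), from 87.8 ± 3.72 to 107 ± 4.54 CPM (0.28), the latter with a close copy, Tubb2b, that was not called (-0.04). Tuba8 was lower, from 65.0 ± 1.74 to 37.5 ± 3.77 CPM (-0.78), as was Tubb5 (-0.21).

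Mitotic genes shifted by small steps in 1 direction. Of 50 measured, 28 were called higher, none lower and none by 2-fold, with a median 0.17 above all genes (0.13 to 0.19 over the alternatives). With plain library totals or the deposited log2 values as few as 9 were called higher and up to 16 lower. Aspm went from 40.2 ± 4.29 to 67.8 ± 6.86 CPM (0.75), Cenpf gained 0.51, Cdc20 0.47 and Cenpe 0.38. Among 52 genes of replication and G1/S, 13 were higher and 9 lower (4 and 29 with plain library totals). Pcna, the sliding clamp of DNA polymerases, was at 306, 321 and 308 CPM in Control and at 980, 1004 and 1027 CPM in Taxinine (1.69 ± 0.04, adjusted p = 1.50e-40, edgeR), and Orc1 went from 9.66 ± 0.976 to 28.0 ± 1.91 CPM (1.54).

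Targets of p53 were higher in 13 of 34 cases and lower in 6 (10 and 17 with plain library totals). That is 55.9% called, beside 34.7% of all genes. Cdkn1a, the cyclin-dependent kinase inhibitor p21, was at 414, 371 and 395 CPM in Control and at 1321, 1380 and 1374 CPM in Taxinine (1.79 ± 0.04, adjusted p = 7.25e-41, edgeR), and Mdm2, the ubiquitin ligase of p53, went from 204 ± 5.33 to 457 ± 13.98 CPM (1.17). Within the BCL2 family list, 6 of 25 were higher and 10 lower. Both Mcl1, which blocks cell death, and Pmaip1 (NOXA), which antagonises it, were higher, at 1.23 and 1.65, Bcl2l11 (BIM) gained 0.70, and Bmf was lower, from 59.0 ± 2.36 to 28.5 ± 2.46 CPM (-1.05).

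Glucose uptake and glycolysis genes were higher in 16 of 29 cases and lower in 2, with a median 0.21 above all genes (0.03 to 0.24 over the alternatives). The change was largest at the first steps. Slc2a3, the glucose transporter GLUT3, was at 278, 263 and 266 CPM in Control and at 864, 788 and 811 CPM in Taxinine (1.61 ± 0.04), Hk2 went from 151 ± 5.44 to 423 ± 4.01 CPM (1.49), and Slc2a1 and Pfkfb3 gained 0.45 and 0.48. In the hypoxia list 11 of 28 were higher and 4 lower (8 and 11 with plain library totals). Ndrg1 went from 78.9 ± 6.55 to 530 ± 14.6 CPM (2.75), while Vhl, part of the ubiquitin ligase of HIF factors, was lower (-0.89).

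Cholesterol genes were higher in 13 of 36 cases and lower in 7 (4 and 9 with plain library totals), with a median 0.16 above that of all genes. Cyp51, an enzyme of cholesterol synthesis, gained 0.77, while the exporter Abcg1 (-0.71) and the desaturase Scd2 (-0.54) were lower. Respiratory chain genes gave 3 higher and 9 lower of 70, or 17.1% called beside 34.7% of all genes, but 0 higher and 60 lower with plain library totals. Ribosomal protein genes were called in 18.9% of cases, 14 higher and none lower of 74. That count rested on single libraries: it was 55 without Control 2, 6 without Control 1, 7 without Control 3 and 3 without Taxinine 3, and with other scalings up to 69 were called lower. Ribosome biogenesis gave 19 higher and 2 lower of 54 (4 and 25 with plain library totals), led by Rrp12 (0.79), and translation initiation factors 15 higher and 3 lower of 40 (8 and 18), led by Eif4a1 (0.72) and Eif1 (0.60).

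Further large rises were those of Mst1r, Marcksl1 and Rgcc, all among the 15 largest. Mst1r, the receptor RON, had 5 counts in the Control libraries together and was at 3.34 to 4.90 CPM in Taxinine (5.04 ± 0.42). Marcksl1, a calmodulin-binding relative of MARCKS, was at 2.72, 3.84 and 3.97 CPM in Control and at 103, 119 and 111 CPM in Taxinine (4.98 ± 0.09). Rgcc, a regulator of the cell cycle, went from 0.200 ± 0.113 to 5.34 ± 1.32 CPM (4.67 ± 0.35). Kdm6b, the demethylase of lysine 27 on histone H3, was the sole member at 2-fold or more in a list of 50 chromatin enzymes, of which 16 were higher and 8 lower (9 and 22 with plain library totals): it was at 72.5, 70.3 and 67.9 CPM in Control and at 452, 454 and 456 CPM in Taxinine (2.69 ± 0.04). Gpr171, an orphan receptor by its symbol, went from 123 ± 4.34 to 714 ± 12.2 CPM (2.54), and the inflammasome sensor Nlrp3 from 191 ± 14.7 to 712 ± 1.81 CPM (1.90).

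The falls were smaller and fell on other classes of gene. ZFP genes, named for their zinc fingers and mostly DNA-binding repressors, were lower in 167 of 319 cases and higher in 19, with 40 at least 2-fold lower, beside 18.1% of all genes called lower and 2.3% at least 2-fold lower. Their median was 0.31 below that of all genes, 0.24 to 0.33 below over the alternatives. Of the 15 largest falls 6 were ZFP genes. Zfp551, at chr7:12415153-12422751, was at 2.89 to 3.53 CPM in the 3 Control libraries and at 0.238, 0.882 and 0.854 CPM in Taxinine (-2.17 ± 0.31, adjusted p = 9.20e-08, edgeR). Zfp54, Zfp85, Zfp128 and Zfp870, each under 8 CPM in every library, fell by 1.96, 1.86, 1.86 and 1.70 on the log2 scale.

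Zfp217 had the most reads of these falls. It was at 96.1, 98.8 and 90.9 CPM in Control and at 29.8, 28.1 and 30.9 CPM in Taxinine, with no overlap (-1.68 ± 0.06, adjusted p = 1.08e-29, edgeR). By chromosome, 48 of 83 ZFP genes were lower on chromosome 7, 27 of 39 on chromosome 17 and 16 of 28 on chromosome 13. Mouse zinc finger clusters lie on these chromosomes, but the share over all was 167 of 319. Chromosome 8 gave 11 of 20 and chromosome 4 gave 6 of 20. The ZFP genes called higher included Zfp36 (2.40), which encodes the RNA-binding protein tristetraprolin and is no DNA-binding repressor, Zfp281 (1.39) and Zfp948 (1.26). The corepressor gene Trim28, through which many such proteins act, was at 210 ± 8.60 and 238 ± 7.995 CPM (0.18, but -0.02 with plain library totals), and of 21 silencing genes 4 were higher and 3 lower (0 and 12). Outside the ZFP symbols, 2294 protein-coding genes were higher and 2259 lower of 12109.

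Other large falls had varied roles. Gfi1, a zinc finger repressor of blood cells, was at 3.53, 5.29 and 4.38 CPM in Control and at 1.31, 1.18 and 0.93 CPM in Taxinine (-1.98 ± 0.26). Id1, an inhibitor of helix-loop-helix factors, fell by 1.68, and Kcnj2, an inward rectifier potassium channel, went from 22.7 ± 1.43 to 6.96 ± 0.429 CPM (-1.70). Also lower were the monocarboxylate carrier family gene Slc16a4 (-2.13), the glycosyltransferase B3gnt7 (-1.90), the secreted ligand Wnt9a (-1.70), Ccdc39 (-1.72) and Nscme3l (-1.84). Of 1238 long noncoding RNA genes, at a median level of 0.802 CPM, 212 were lower, 17.1% beside 18.1% of all genes, and 94 higher, 7.59% beside 16.7%. Large changes were a bigger part of these calls: 100 of the 1238 were at least 2-fold lower and 62 at least 2-fold higher. Over all 15109 genes those counts were 347 and 533. The median log2 fold change of the class was -0.246. Interferon response genes were lower in 14 of 40 cases and higher in 4, with Usp18 at -0.79 and Rsad2, the other way, at 0.79.

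Gene size moved with direction. Over 10741 protein-coding genes with a mean of at least 1 CPM, the median log2 fold change was -0.09 in the first of 5 equal groups by genomic span, the shortest, and 0.11 in the last, and 6.2% of the longest were called lower against 30.8% of the shortest. The trend was present in each Taxinine library, from -0.111, -0.075 and -0.078 to 0.115, 0.110 and 0.089. Each was set against the same Control mean, so these values are not independent of one another. The Control libraries differed among themselves by span as well, in opposite directions: Control 1 against the other two went from -0.051 to 0.047 and Control 2 from 0.067 to -0.048. The part of this trend in the small calls was not tested. Genes at least 2-fold higher were short, with a median span of 14 kb beside 23.5 kb for all protein-coding genes, as were those at least 2-fold lower, at 11.8 kb, while genes called higher by under 2-fold had a median span of 41.2 kb.

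**Figure D5:**
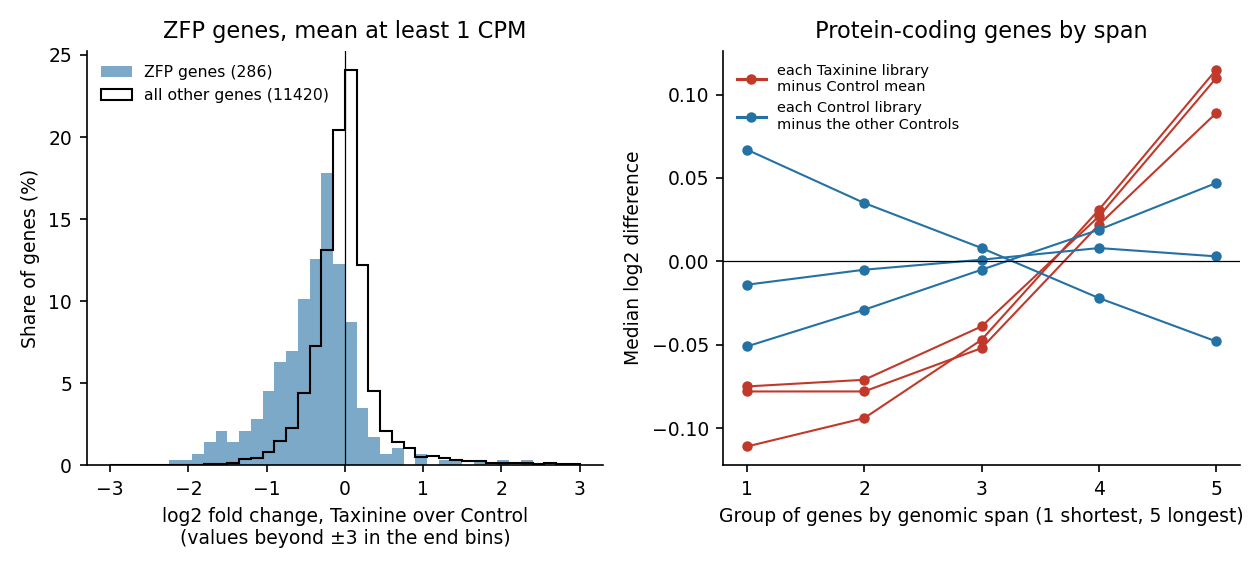
Left, the share of genes by log2 fold change for 286 ZFP genes and 11420 other genes with a mean of at least 1 CPM. Right, the median log2 difference of each Taxinine library from the Control mean (red) and of each Control library from the other two (blue) over 5 equal groups of protein-coding genes by genomic span, where the red lines run from -0.111 to 0.115 and the blue lines stay between -0.051 and 0.067.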

How the data were processed

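Polyadenylated RNA of 9 libraries was sequenced as stranded pairs of 2 × 101 bases, per the labels' protocols, and aligned with STAR 2.7.0f to GRCm38 (mm10), per the submitters' processing notes, which also name limma 3.11. Which program, annotation and strand mode counted the reads is not given here, so reads of overlapping or antisense genes may be mixed. The deposited count table holds unscaled whole-number counts of 15109 genes, all of which have a count in the 6 libraries used. Values of the deposited log2 table match CPM on plain library totals, plus 1, taken to log2, within 5e-05, and served as an alternative.

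The counts of 3 Taxinine and 3 Control libraries were fitted with edgeR 4.0.16's quasi-likelihood test in R 4.3.3, with TMM factors, no filter and no replicate term, and adjusted by Benjamini and Hochberg over all genes. Levels are CPM on TMM-scaled totals, as mean ± SD, and fold changes are log2 values. Each SE is the absolute log2 fold change divided by the square root of the test's F statistic. It is an approximate value and not the fitted coefficient's own standard error. The biological coefficient of variation was 3.52%. In simulated data for this comparison, over 15109 genes, 37 of 50 genes changed 1.25-fold were recovered, 48 of 50 at 1.5-fold and all 50 at 2-fold and at 4-fold. The changed genes were drawn from those expected to reach 50 counts in a library of mean depth. Every simulated gene had that same coefficient of variation. Recovery of genes with fewer reads or a larger spread was not tested. Coordinates are those of GENCODE M21, to which 15106 identifiers matched. Exact intervals were computed with SciPy 1.17.1 and cover counting error only.

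The comparison and the gene lists were chosen with earlier results of these data known. Named genes are the 15 largest rises and falls among called genes with a mean of at least 1 CPM and no overlap (predicted genes and pseudogenes left out), from each list described up to 4 called members by smallest p and up to 2 not called or opposite, and 30 mediators, receptors and regulators named by hand. Alox5, Atf4, Ccl5, Ccl6, Ccl9, Ccl25, Cebpb, Cebpd, Csf1, Cx3cl1, Cxcl10, Cxcl2, Ddit3, Ddx5, Dusp1, Dusp5, Dusp6, Egr1, Egr4, Fos, Fosl1, Fosl2, Furin, Gata2, Il10, Il17rb, Il1b, Il33, Itga2b, Jund, Kif3a, Lif, Mitf, Plek, Rad50, Socs3, Spi1, Tgfb1 and Tubb2b were chosen after their values were seen. A few genes that the rule names are not reported here. Alternatives were other scalings, DESeq2 1.42.0, limma 3.58.1 on the deposited log2 values and after quantile scaling, a filter at 1 CPM in 3 libraries, a fit over all 9 libraries, a replicate block and leaving out each library. The 3 antigen-only libraries entered that 9-library fit and nothing else.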

Additional observations from a re-analysis of the deposited data

How the results depend on the processing

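With plain library totals 1126 genes were called higher and 6412 lower, and with limma on the deposited log2 values 1140 and 6433. At 2-fold or more, plain totals gave 648 lower, and the log2 values gave 428 calls, 243 higher and 185 lower; that scale adds 1 to each CPM, which shrinks low genes. Leaving out each library gave 4423 to 5093 calls, 2138 to 2522 higher and 2260 to 2602 lower, and at 2-fold 795 to 847, 482 to 506 and 305 to 343. The replicate block gave 5475 calls and kept 5206 of 5249. Same-numbered samples correlated at 0.086, 0.020 and 0.004 in their deviations from the group mean, beside -0.089 to 0.078 for differing numbers. Whether the numbers pair cultures cannot be told from these values. Of 230 genes named, 200 kept the same call (higher, lower or not called) under every alternative that could be run. Some genes called in neither fit changed sign, such as Ccl5 (0.16, lowest -0.1) and Cebpd (0.19, lowest -0.01). For genes called in the main fit or the alternative, directions reversed as follows, on the log2 scale, and the cause was not tested. With plain totals Alox5, Kit, Rad50, Mcpt4, Cpa3, Tnfrsf1b, Tpsb2, Il17ra, Cct2 and Trim28 stood at -0.18, -0.17, -0.19, -0.14, -0.12, -0.12, -0.10, -0.09, -0.02 and -0.02. The deposited log2 values gave the same 10 genes -0.18, -0.17, -0.19, -0.13, -0.12, -0.13, -0.10, -0.08, -0.02 and -0.02. After quantile scaling Kit, Alox5, Slc18a2, Hsp90ab1, Cct2, Il17ra, Srgn, Cpa3 and Trim28 stood at -0.48, -0.44, -0.21, -0.20, -0.08, -0.02, -0.01, -0.00 and -0.00. No list median among the 19 plotted changed sign relative to all genes. Depth limits genes under about 1 CPM, where 3 counts in Taxinine 1 make 0.357 CPM.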

Other observations

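Single surface and transport genes outside the report's lists had large changes, while their classes were called in no more than 41.4% of cases, beside 34.7% of all genes. Of 227 solute carriers 47 were called higher and 35 lower (31 and 85 with plain library totals), 36.1% called, with the creatine carrier Slc6a8 from 64.2 ± 1.09 to 165 ± 1.45 CPM (SD, n = 3, log2 fold change 1.37). Among 40 potassium, calcium and TRP channel genes 6 were higher and 6 lower, led by the potassium channel Kcnk5, from 24.8 ± 2.97 to 71.2 ± 3.37 CPM (1.52), and the calcium-permeable channel Trpv2 gained 0.72. Among 46 orphan and adhesion receptors 8 were higher and 10 lower: Adgre5 (CD97) gained 1.15, while Gpr34 and Gpr146 were lower (-0.75 and -0.87). Of 29 integrin and adhesion genes 5 were higher and 7 lower, with the hyaluronan receptor Cd44 at 0.72, Icam1 at 0.44 and Itgb3 at -0.31.

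Among 20 activation and costimulation genes 8 were higher and 5 lower (6 and 9 with plain library totals). Tnfsf9, the ligand of 4-1BB, went from 6.09 ± 0.733 to 19.3 ± 2.16 CPM (1.67) and its receptor Tnfrsf9 from 69.4 ± 3.84 to 118 ± 4.45 CPM (0.76). Cd274, which encodes PD-L1, was lower, from 227, 229 and 222 CPM to 159, 156 and 158 CPM (-0.52). Lysosomal genes were higher in 14 of 44 cases and lower in 2 (7 and 21 with plain library totals), with the proton pump subunit Atp6v1e1 at 0.78 and alpha-galactosidase, Gla, at 0.69. In the list of nuclear and snoRNA host noncoding RNAs 8 of 25 were higher and 4 lower (5 and 8 with plain library totals). Mir22hg went from 32.1 ± 1.54 to 86.2 ± 5.43 CPM (1.42) and Snhg17 from 19.6 ± 1.93 to 10.9 ± 1.61 CPM (-0.86).

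Some genes with hardly a read in Control were called higher, and these were chosen after their values were seen. Tmem88 had 3 counts in Control and 43 in Taxinine, a ratio of 20.3 (exact 95% interval 6.51 to 102). The hosts of the microRNAs Mir132 and Mir212 were not measured as mature forms: the 2 entries had 2 and 25 counts (17.7, interval 4.42 to 155) and 3 and 19 counts (8.99, interval 2.65 to 47.4) in polyadenylated RNA. The pseudogene entry Rpl23a-ps2 had 1 and 78 counts, and its reads cannot be told apart from those of near-identical ribosomal copies.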
